A study of Rattus norvegicus with 18 samples.

Results

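The comparison described here set rat liver 2 h after partial hepatectomy (PH), the surgical removal of part of the liver, against rat liver 2 h after a sham operation. It rests on 6 of the 18 arrays of the study, chosen by their titles: 3 of liver after PH and 3 of liver after the sham operation. All 31042 probe sets other than the array's control probe sets were considered on these arrays, and 22125 of them, naming 11499 genes, passed a filter on low signal and were tested. The study measured liver RNA on Affymetrix Rat Genome 230 2.0 arrays in 6 groups of 3 arrays and asked how the autonomic nerves of the liver bear on its first response to PH. In the PH group the nerves were left intact and part of the liver was removed. The sham group is called an operation control in the study's design and carried no denervation. A group of normal liver at 0 h is given below for context, and the other 3 groups, in which PH followed sympathectomy, vagotomy or total denervation, entered the model for their spread alone. All groups came from 12-week-old Sprague-Dawley rats without a named mutation or drug, and the tissue was the middle of the right lobe after the blood had been flushed out through the portal vein. Neither the share of the liver removed nor the number of animals in a group is given in the sources used here. Within a group the 3 arrays are labelled as technical replicates, so n counts arrays, and every SD and p-value below measures the spread between arrays and not between animals.

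The liver regrows after part of it is lost because the remaining hepatocytes leave quiescence and divide. In the first hours, before DNA is copied, immediate early genes are switched on by transcription factors that are already in the cell, among them SRF, which binds CArG boxes, and CREB, which binds cAMP response elements. Cytokines, ligands of the EGF receptor, hepatocyte growth factor freed by the urokinase system and noradrenaline are known to act in this phase, which is called priming because it makes hepatocytes competent to divide later.

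Values are the deposited signal intensities, and differences are PH minus sham on the log2(signal + 12) scale, which understates the change of dim genes. A call required at least a 2-fold difference together with an adjusted p below 0.05 (limma, Benjamini-Hochberg over all probe sets tested), and the words "rose" and "fell" are kept for calls. A gene was counted by the call of its brightest probe set. Among the named genes and list members, 28 that were not called had another probe set that was. Of 11499 genes, 252 rose (2.19%) and 220 fell (1.91%). Over probe sets the counts were 438 higher (1.98%) and 528 lower (2.39%). The 3 PH arrays all lay beyond the 3 sham arrays for 41.9% of all genes, so such a separation alone sets no gene apart. The rises were larger: 62 of 252 were at least 4-fold and 15 at least 8-fold, against 15 and 1 of the 220 falls. The genes that rose had a median signal of 678.1 in PH livers, against 221.6 in sham livers, and those that fell had 110.6 in PH livers, against 272.0 in sham livers. Replicate arrays correlated at 0.958 to 0.961 within these groups and at 0.936 to 0.940 between them, over the 22125 probe sets tested, which are not independent replicates.

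Every array had been scaled to the same trimmed mean signal of 500, and the median log2 difference over all genes was -0.085 (-0.114 over probe sets). A small difference below 0 is therefore the typical value here, and the number of falls depended on the scaling: with each array centred on its median 353 genes were called higher, the 252 rises among them, and 124 lower, all of them among the 220. The ratio of 3′ to 5′ signal of Actb, a measure of RNA integrity, was 1.65 to 1.85 in PH livers, against 2.11 to 2.25 in sham livers, and that of Gapdh was 1.2 to 1.23 in PH livers, against 1.35 in sham livers. The part of this difference in the results below was not tested. Of 16 hepatocyte marker genes none was called by limma, 3 had an unadjusted p under 0.05 (38.2% of all genes had one), and the median difference was 0.06, and their summed signal was 695720 to 723704 in PH livers, against 658012 to 696065 in sham livers. Albumin (Alb) had 45341, 50248 and 41324 in PH livers, against 49461, 47261 and 42199 in sham livers, and the groups overlapped.

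**Figure D1:**
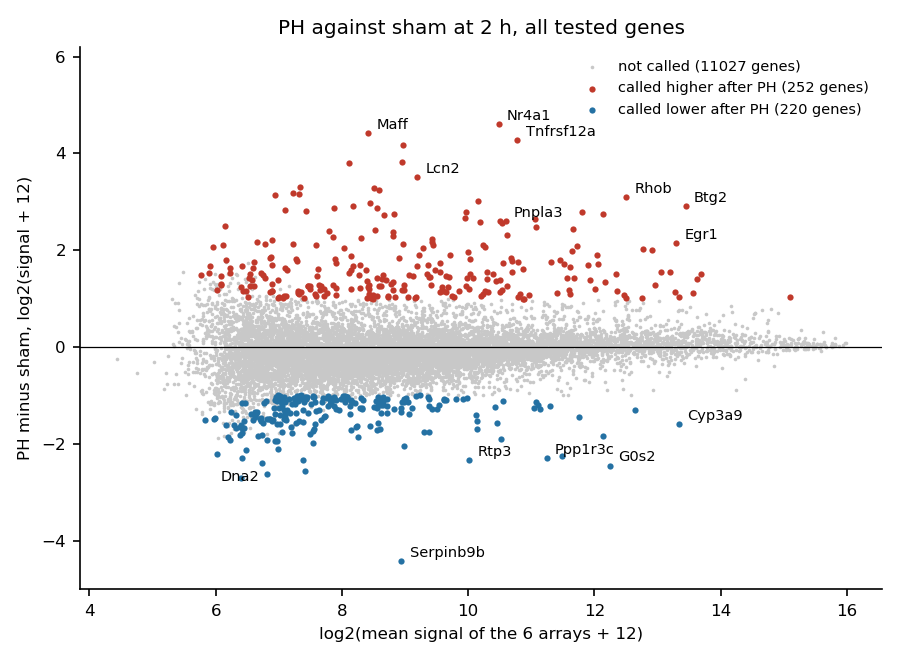
Difference between PH and sham at 2 h (log2 scale, vertical axis) against mean signal of the 6 arrays (log2 scale, horizontal axis) for 11499 genes, each a point. The 252 genes called higher after PH reach further from 0 than the 220 called lower, with Nr4a1 at 4.6 and Serpinb9b at -4.42 as the extremes.

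The promoters of several genes that rose carry the sites through which early transcription factors act, and the ones below are shown because these letters can be read in them directly. They are RefSeq promoters of assembly GRCr8, running from 250 bases before to 50 bases after the annotated start, written 5′ to 3′ on the strand of the gene. Capitals mark CArG boxes in Egr1 (chr18:26736828-26737127, plus strand), Srf (chr9:21923826-21924125, plus strand) and Dusp5 (chr1:262543524-262543823, plus strand), each of which has a pair of them.
Egr1: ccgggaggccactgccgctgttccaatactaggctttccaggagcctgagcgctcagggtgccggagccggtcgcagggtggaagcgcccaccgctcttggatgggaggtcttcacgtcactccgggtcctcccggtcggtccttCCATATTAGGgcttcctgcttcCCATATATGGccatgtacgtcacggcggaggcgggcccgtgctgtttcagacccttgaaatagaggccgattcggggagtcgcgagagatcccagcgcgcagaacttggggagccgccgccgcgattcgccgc
Srf: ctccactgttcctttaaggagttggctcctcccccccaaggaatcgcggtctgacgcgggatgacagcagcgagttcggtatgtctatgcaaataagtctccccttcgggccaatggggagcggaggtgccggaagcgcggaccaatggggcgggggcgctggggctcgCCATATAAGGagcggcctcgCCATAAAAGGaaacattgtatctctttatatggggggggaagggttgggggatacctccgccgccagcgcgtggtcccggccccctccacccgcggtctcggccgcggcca
Dusp5: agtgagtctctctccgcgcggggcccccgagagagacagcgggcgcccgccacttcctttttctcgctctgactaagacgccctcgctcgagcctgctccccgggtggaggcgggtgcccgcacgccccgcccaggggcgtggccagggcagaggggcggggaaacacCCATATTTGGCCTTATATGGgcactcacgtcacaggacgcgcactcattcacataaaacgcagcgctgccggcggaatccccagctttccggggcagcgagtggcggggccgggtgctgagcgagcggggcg
Windows of 60 bases around the CArG box are shown for Egr2 (chr20:21054490-21054549), Klf6 (chr17:69458645-69458704), Rnd3 (chr3:55998606-55998665) and Zfp36 (chr1:92799106-92799165), all on the minus strand.
Egr2: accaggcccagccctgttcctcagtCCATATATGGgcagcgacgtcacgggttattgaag
Klf6: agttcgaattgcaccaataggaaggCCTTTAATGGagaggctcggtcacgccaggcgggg
Rnd3: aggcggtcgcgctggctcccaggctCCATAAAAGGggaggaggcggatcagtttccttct
Zfp36: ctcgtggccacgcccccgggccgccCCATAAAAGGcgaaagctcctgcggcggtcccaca
Capitals mark the full cAMP response element, TGACGTCA, in Maff (chr7:112792537-112792836, plus strand) and Btg2 (chr13:48087641-48087940, minus strand), and overlapping NF-kB sites in the chemokine gene Cxcl2 (chr14:17467206-17467505, minus strand).
Maff: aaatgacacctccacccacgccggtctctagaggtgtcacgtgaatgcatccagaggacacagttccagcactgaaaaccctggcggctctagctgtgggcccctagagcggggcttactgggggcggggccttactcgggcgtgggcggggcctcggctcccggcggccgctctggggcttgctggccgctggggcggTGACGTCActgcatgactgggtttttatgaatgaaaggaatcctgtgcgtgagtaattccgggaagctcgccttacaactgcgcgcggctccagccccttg
Btg2: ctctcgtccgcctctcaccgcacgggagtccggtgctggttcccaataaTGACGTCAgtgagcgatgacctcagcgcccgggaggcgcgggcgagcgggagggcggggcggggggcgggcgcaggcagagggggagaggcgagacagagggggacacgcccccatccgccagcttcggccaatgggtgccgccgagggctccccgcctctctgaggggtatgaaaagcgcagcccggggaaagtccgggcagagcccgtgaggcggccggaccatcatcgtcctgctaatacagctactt
Cxcl2: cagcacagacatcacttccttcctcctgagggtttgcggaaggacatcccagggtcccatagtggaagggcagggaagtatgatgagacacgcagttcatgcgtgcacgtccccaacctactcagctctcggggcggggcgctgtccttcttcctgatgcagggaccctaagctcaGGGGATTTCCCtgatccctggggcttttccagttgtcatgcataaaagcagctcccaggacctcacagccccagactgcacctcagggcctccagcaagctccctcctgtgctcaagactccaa

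The CArG boxes lie 105 and 83 bases before the start in Egr1, 81 and 61 in Srf, 82 and 72 in Dusp5, 83 in Egr2, 201 in Klf6, 146 in Rnd3 and 32 in Zfp36. The element begins 51 bases before the start in Maff and 201 in Btg2. Promoters were at hand for 8822 of the 11499 genes, for 189 of the 252 that rose and for 180 of the 220 that fell; both strands were searched. A CArG box was found in 7 of 189 promoters of genes that rose (3.7%), in 2.22% of those that fell and in 1.2% of all. All 7 belong to the early gene lists described next, where they make up 25.9% of the 27 members that rose and had a promoter. The element TGACGTCA was in 6.35% of promoters of genes that rose, 2.22% of those that fell and 3.09% of all, and the AP-1 site TGANTCA in 11.6%, 4.44% and 5.12%. The EGR site GCGNGGGCG stood in 14.8%, 7.78% and 9.85% in the same order, the NF-kB site in 13.8%, 5.56% and 9.83%, the STAT site TTCNNNGAA in 8.99%, 8.33% and 6.72%, and the E-box CACGTG in 8.47%, 8.89% and 9.37%. In the 27 promoters of the early lists the EGR site stood in 48.1%, the E-box in 18.5% and the element TGACGTCA in 14.8%. There the STAT site stood in 14.8%, the NF-kB site in 11.1% and the AP-1 site in 0.0%. These lists were chosen with earlier results of these data known. All these are matches of letters, given as a description. The base composition of the promoters was not accounted for.

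**Figure D2:**
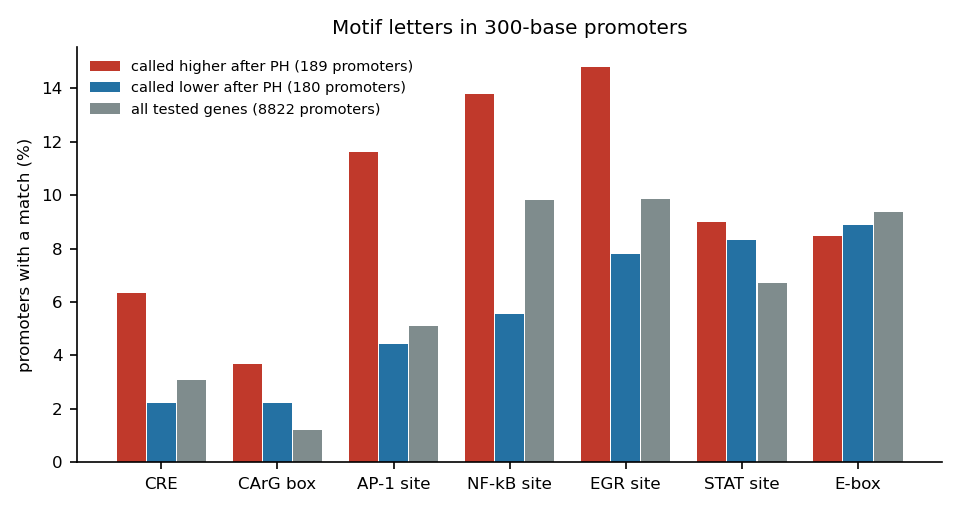
Share of 300-base promoters with a match to each motif (percent, vertical axis) in genes called higher after PH (189 promoters), genes called lower (180) and all tested genes (8822). Bars for genes called higher stand above those for all genes in 6 of the 7 motifs, the E-box being the exception (8.47% against 9.37%).

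The AP-1 factors, which pair as leucine zipper dimers to switch on growth and stress genes, were the family with the highest median difference among the early lists, 1.18 over 12 measured members against -0.085 over all genes. Of the 12, 6 rose and none fell. Nr4a1, an orphan nuclear receptor of the cAMP and stress response, showed the largest difference of the 11499 genes, with signals of 2642, 2892 and 2676 in PH livers, against 129.1, 62.1 and 127 in sham livers. Maff, a small Maf protein, had 562, 663.8 and 699.9 in PH livers, against 24.9, 9.77 and 22.7 in sham livers. The lowest PH array of each stood far above the highest sham array, and the fitted differences were 4.6 (SE 0.21, adjusted p = 2.56e-12, limma) for Nr4a1 and 4.42 (SE 0.29, adjusted p = 5.58e-10) for Maff. Since the files used here hold no detection calls, signals as low as those of Maff after the sham operation, may lie near background.

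Fos, the classical AP-1 partner of Jun, had 2465, 2532 and 2411 in PH livers, against 431.1, 321.2 and 442.8 in sham livers (2.61, SE 0.09, adjusted p = 7.83e-14, limma). Atf3, a stress-induced repressor that dimerises with Jun proteins, had 738.7, 640.9 and 673.1 in PH livers, against 39, 59.5 and 96.9 in sham livers (3.24, SE 0.2). Both sets of arrays were well separated, and so were those of Fosl2 (2.87), Jund (1.55) and Mafk (1.44), which also rose. Jun itself had 6805, 6477 and 6993 in PH livers, against 3459, 3373 and 3821 in sham livers. That difference of 0.93 (SE 0.05, adjusted p = 1.21e-10, limma) stayed just under 2-fold, while other Jun probe sets differed by 1.33, a rise, and 0.87. Junb, at 0.89, was also under 2-fold, and the remaining members Jdp2 (0.77), Mafg (0.73), Fosl1 (0.02) and Batf3 (-0.17) were not called.

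Zinc finger factors of the Egr and Klf families followed, with 5 of 13 members higher, none lower and a median of 0.9. Egr1, which is induced by growth factors through SRF, had 16796, 16523 and 15825 in PH livers, against 3680, 3684 and 3669 in sham livers (2.15, SE 0.04, adjusted p = 4.82e-18, limma). Klf6 had 2451, 2507 and 2650 in PH livers, against 386.1, 431.2 and 440 in sham livers (2.56, SE 0.08). In both genes the arrays of a group lay close together and the groups far apart. Egr2, at a dimmer level, rose with 169.4, 161.5 and 263.3 in PH livers, against 71.2, 38.4 and 63.9 in sham livers (1.59, SE 0.24). Klf2 (1.09) and Klf4 (1.04, or 0.99 without sham replicate 3) were just past 2-fold. Other Klf2 probe sets differed by 0.37, 0.91 and 1.26, the last a rise, and its call ended as a mean of its probe sets (0.91). Klf9 (0.1), Klf10 (0.12), Klf13 (-0.28) and Klf15 (-0.43) were not called, nor was Egr4 (1.22, adjusted p = 0.23), whose arrays read 92.3, 116.6 and 19.3 in PH livers, against 16.2, 31.1 and 15.1 in sham livers and overlapped.

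Of 28 other immediate early genes, 14 rose and none fell, with a median of 0.89. Rhob, a small GTPase that shapes the actin cytoskeleton, had 10583, 9915 and 10598 in PH livers, against 1217, 1145 and 1223 in sham livers (3.1, SE 0.06, adjusted p = 4.82e-18, limma), and the GTPases Gem (3.3), Rnd1 (2.75) and Rnd3 (1.43) rose as well. Among regulators of RNA and protein stability, Arid5a, which stabilises inflammatory mRNAs, rose by 2.72 and Zfp36, which destabilises them, by 1.29. Zfp36 had 11086, 11418 and 11556 in PH livers, against 4709, 4558 and 4627 in sham livers, with no overlap. Srf, the factor of the CArG box itself, had 1118, 1122 and 1194 in PH livers, against 421.3, 599.9 and 422.7 in sham livers (1.25, SE 0.11). The pseudokinase Trib1 (1.97), the kinase Sgk1 (1.75), Phlda1 (2.17), Csrnp1 (1.25), the CBP-binding Cited2 (1.17), Tiparp (1.15) and the mitochondrial carrier Slc25a25 (1.01, or 0.99 without sham replicate 1) completed the 14. Members that were not called included Ier2 (0.78), Ier3 (-0.5), Irf1 (-0.5) and Per1 (-0.13, or 0.02 with centred arrays).

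**Figure D3:**
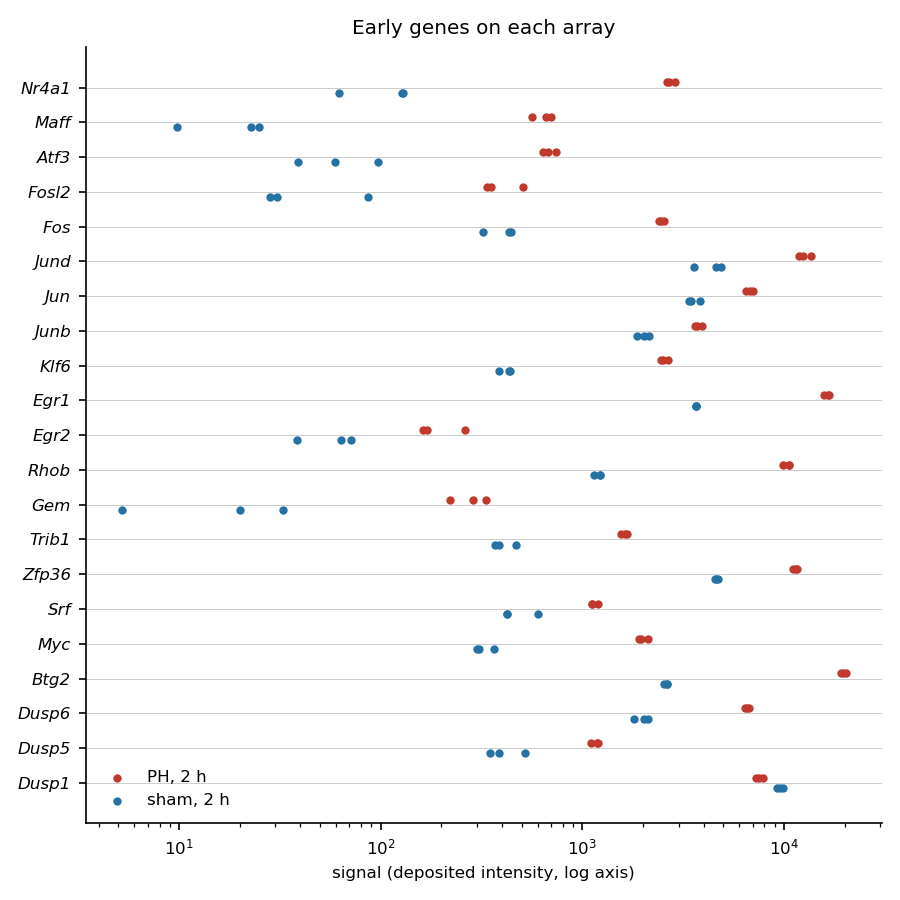
Signal on each array (horizontal log axis, deposited intensity) for 21 early genes, with the 3 PH arrays above the 3 sham arrays in each row. The groups do not overlap in any row, and in the bottom row, Dusp1, the PH arrays (7262 to 7832) lie below the sham arrays (9230 to 9904).

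The genes around cAMP and the MAP kinases were split. In the list of NR4A factors and cAMP response, 4 of 20 rose and 1 fell, with a median of 0.28. Beside Nr4a1 they were the kinase Sik1 (977.2, 979.3 and 1205 in PH livers, against 321.2, 396.1 and 310.3 in sham livers; 1.59), the coactivator of gluconeogenesis Ppargc1a (1.46) and Rgs2, which shortens Gq signals (1.06). The adenylyl cyclase Adcy9 fell (-1.46, adjusted p = 0.0262, limma). Of the close relatives of Nr4a1, Nr4a2 (0.38) was not called and Nr4a3 differed between its probe sets: the brightest was at 0.3, a second at -0.77, and another rose by 2.12, with mean signals of 68.9 in PH livers, against 6.62 in sham livers. The brightest probe sets of Crem and Pde4b, both at 0.96 with adjusted p of 2.5e-05 or lower, were just under 2-fold, while 3 other Crem probe sets rose, by 1.05, 1.03 and 1.23. The call of Rgs2 ended without sham replicate 3 (0.92) and as a mean of its probe sets (0.91). Ppargc1a was no longer called with a pseudocount of 90 (0.97), nor was Adcy9 when any of 5 single arrays was left out.

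Of 15 inhibitors that feed back on MAP kinases, 5 rose and none fell, with a median of 0.77. Dusp6, a phosphatase of ERK, had 6721, 6540 and 6387 in PH livers, against 1802, 2118 and 2016 in sham livers (1.72, SE 0.07, adjusted p = 2.17e-13, limma), and its other probe sets differed by 1.76 and 3.32. Dusp5, a nuclear phosphatase of ERK, had 1107, 1195 and 1186 in PH livers, against 521, 385.4 and 350 in sham livers (1.47). The arrays did not overlap in either gene. Dusp2 (2.14), Dusp8 (2.06) and Spry4 (1.05) rose at low signals, and the calls of Dusp8 and Spry4 ended when single arrays were left out. Dusp1, an early phosphatase of several MAP kinases, ran the other way with 7262, 7533 and 7832 in PH livers, against 9904, 9230 and 9601 in sham livers (-0.34, adjusted p = 0.0286), under 2-fold.

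Among 22 genes that push or restrain growth, 4 rose and none fell, with a median of 0.36. Myc, a driver of growth, had 1906, 2126 and 1954 in PH livers, against 301.3, 365 and 308.9 in sham livers (2.58, SE 0.1, adjusted p = 1.69e-13, limma). Of the other 3, Btg2, an antiproliferative partner of the mRNA deadenylase, had 19149, 20272 and 19706 in PH livers, against 2546, 2628 and 2633 in sham livers (2.92, SE 0.05). Gadd45b (1.99) and Gadd45a (1.35), which respond to stress and DNA damage, rose as well. The D and E cyclins measured stayed under 2-fold: Ccnd1 differed by 0.56 (adjusted p = 0.000161), Ccnd2 by 0.44, Ccnd3 by 0.11 and Ccne2 by -0.87. The kinase inhibitors differed in opposite directions, Cdkn1a by 0.7 (5026, 5257 and 5005 in PH livers, against 3107, 3240 and 3054 in sham livers) and Cdkn1b by -0.85 (1210, 1073 and 1027, against 2113, 1879 and 1974), and neither was called at its brightest probe set, while a second Cdkn1a probe set rose by 1.2 (mean signals of 2440 in PH livers, against 1050 in sham livers). In the p53 and apoptosis list Ccng1 (1.36) and the survival gene Bcl2l1 (1.27) rose, Ccng2, a cyclin of quiescent cells, fell (-1.2), and the other 20 of 23 were not called. Other Bcl2l1 probe sets differed by -0.19 and 1.6, the latter a rise, and its call ended as a mean of its probe sets (0.89).

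Genes of DNA replication and mitosis had a median of -0.77 (-0.61 with centred arrays) over 39 members, of which 9 fell and none rose. The background of falls was 1.91% of genes. Dna2, a nuclease and helicase of replication, had 20.7, 22.8 and 14.1 in PH livers, against 213.9, 158 and 172.6 in sham livers (-2.63, SE 0.4, adjusted p = 5.85e-05, limma). Ccnb1, the mitotic cyclin, had 188.8, 127.6 and 212.4 in PH livers, against 422.9, 448.1 and 436.9 in sham livers (-1.28, SE 0.19). In both genes every PH array lay below every sham array. The licensing factor Cdt1 (-1.81), the mitotic kinases Plk1 (-1.59) and Aurka (-1.49), the kinesins Kif20a (-1.75) and Kif23 (-1.16), Prc1, a bundler of spindle microtubules (-1.39), and Cdc20 (-1.15) fell too, all at signals under 500 in both groups. The helicase subunits Mcm2 (-0.56), Mcm4 (0.13), Mcm5 (0.06) and Mcm6 (0.21), the clamp Pcna (0.14) and the proliferation marker Mki67 (-0.9) were not called. With a pseudocount of 90, which presses dim genes toward 0, 3 members were lower, and the calls of Plk1 and Kif23 also ended when single arrays were left out. Another Ccnb1 probe set differed by -0.47, and other Cdc20 probe sets by -1.84, a fall, -1.24 and 1.25. As means of their probe sets the calls of Ccnb1 (-0.87) and Cdc20 (-0.74) ended.

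**Figure D4:**
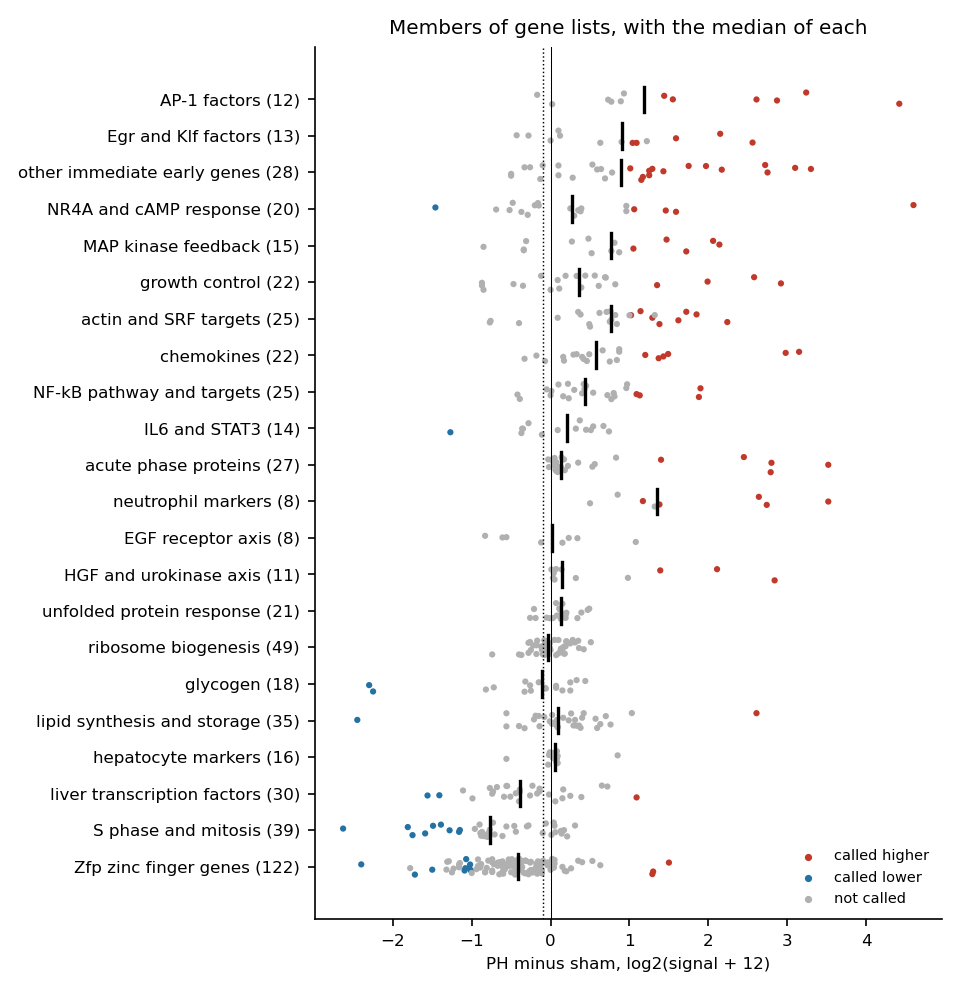
Difference between PH and sham (log2 scale, horizontal axis) for the measured members of 22 gene lists, 1 row a list with the number of members in brackets; red points were called higher, blue points lower and grey points were not called, a black bar marks the median and the dotted line the median of all genes (-0.085). The early gene lists lie to the right, while the S phase and mitosis list (median -0.77) lies furthest to the left.

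In the urokinase and HGF axis 3 of 11 members rose and none fell. The urokinase receptor Plaur had 294.2, 233.8 and 351.6 in PH livers, against 86.5, 18.8 and 99.7 in sham livers (2.11), and the tissue activator Plat also rose (1.39, a call that ended without PH replicate 2 or sham replicate 3). Urokinase itself, Plau, had 603.2, 606.6 and 463.1 in PH livers, against 303.6, 265.3 and 255.9 in sham livers (0.98, adjusted p = 2.35e-05), just under 2-fold. The ligand Hgf (25.1, 93.8 and 12.1 in PH livers, against 16.4, 13.3 and 56.1 in sham livers) and its receptor Met (221.5, 285.7 and 294.6, against 285.2, 221.5 and 269.6) overlapped between groups, with differences of 0.32 and 0.04 (adjusted p = 0.795 and 0.898).

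None of 8 measured members of the EGF receptor axis was called by limma, 4 had an unadjusted p under 0.05, and their median was 0.01. The receptor Egfr had 7849, 8708 and 7911 in PH livers, against 6678, 6510 and 6086 in sham livers, a difference of 0.34 (adjusted p = 0.00959, limma), while a second Egfr probe set was at -0.53. The ligand Hbegf, at 95.8, 79.6 and 139 in PH livers, against 15.9, 97.8 and 39.6 in sham livers (1.08, adjusted p = 0.0613), did not pass the test, nor did Tgfa (0.15). The ligand Egf had 801.3, 859.3 and 896.6 in PH livers, against 1570, 1453 and 1556 in sham livers (-0.83, adjusted p = 1.87e-06), without overlap and under 2-fold. In normal liver it read 807.9, 826 and 745.9, so the sham arrays were the ones that stood apart.

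Of 19 other growth factor genes 3 rose and none fell (median -0.07), and of 11 matricellular genes and YAP targets 3 rose and none fell (median 0.07). Tnfrsf12a is in both lists. Tnfrsf12a, the receptor of TWEAK, a TNF family cytokine known to act on liver progenitor cells, had 3142, 3408 and 3438 in PH livers, against 164.6, 131 and 189.6 in sham livers (4.28, SE 0.11, adjusted p = 5.55e-16, limma). The matricellular proteins Ccn1 (645.9, 649.5 and 648 in PH livers, against 85, 86 and 66 in sham livers; 2.87) and Ccn2 (2.3), known targets of YAP and SRF, rose, as did the vascular receptor Flt1 (1.24, no longer called with a pseudocount of 90 or without any of 4 single arrays) and Gdf15 (1.18). Cish, a feedback inhibitor of growth hormone signalling through STAT5, had 1884, 2044 and 2021 in PH livers, against 510.4, 390.6 and 511.7 in sham livers (2.06, SE 0.16). Igfbp1, which binds insulin-like growth factors, had 47496, 48120 and 46311 in PH livers, against 22633, 23778 and 23223 in sham livers (1.03, or 0.97 with quantile normalization). Of the list of GH and IGF genes these were the 2 called of 14.

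In the TGF-beta, BMP and activin list 3 of 30 fell, 1 rose, and the median was -0.23. Inhbe, the activin E subunit made by hepatocytes, had 615.4, 596.4 and 616 in PH livers, against 2348, 2415 and 2108 in sham livers (-1.89, SE 0.12, adjusted p = 2.29e-10, limma). Id4 (-1.2) and the inhibitor Smad7 (-1.11) fell, whereas Id1, a target of BMP signals, rose with 460.1, 744.5 and 544.6 in PH livers, against 193, 177.6 and 219.3 in sham livers (1.49). Of 21 Wnt and Notch genes, 2 fell, the feedback target Axin2 (-1.1) and the receptor Fzd7 (-1.09). Smad7, Axin2 and Fzd7 stayed under 2-fold with centred arrays (-0.95, -0.95 and -0.93), and another Fzd7 probe set differed by 1.11 (adjusted p = 0.302). Other Smad7 probe sets differed by -0.2 and -0.24, and its call ended as a mean of its probe sets (-0.51).

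Of 25 cytoskeletal and SRF target genes, 8 rose and none fell, with a median of 0.77. Tropomyosin 4 (Tpm4) had 4299, 4684 and 4422 in PH livers, against 1347, 1332 and 1365 in sham livers (1.72, SE 0.08, adjusted p = 1.66e-12, limma). The tubulin Tubb6 (2.24), annexin Anxa1 (1.85), vimentin (Vim, 1.62), zyxin (Zyx, 1.38), smooth muscle actin (Acta2, 1.29) and the hepatocyte keratins Krt18 (1.14) and Krt8 (1.02, or 0.99 without sham replicate 3) were the others. Actb had 31777, 34435 and 31572 in PH livers, against 19298, 19115 and 18972 in sham livers, a difference of 0.77 that was not called. Stellate cell and fibroblast markers, which share Acta2, had 3 of 13 higher, the others being Dcn (1.49) and Col1a2 (1.02), whose calls ended without any of 4 and of 3 single arrays (1.08 and 0.92 at the lowest). Their summed signal was 4145 to 4271 in PH livers, against 2411 to 2837 in sham livers and 3498 to 3646 in normal liver. The dimmest of them in sham livers was Dcn at a mean of 18.3. In a whole tissue sample, more cells of a type and more RNA per cell cannot be told apart.

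Chemokine genes were among the inflammatory genes that rose. Of 22 chemokines, 6 rose and none fell, with a median of 0.57. Ccl2, which attracts monocytes, had 195.1, 220.7 and 212.3 in PH livers, against 17.4, 17.2 and 5.93 in sham livers (3.15, SE 0.42, adjusted p = 1.35e-05, limma). Cxcl2, which attracts neutrophils, had 611.8, 504.3 and 711.1 in PH livers, against 52.7, 79.9 and 67.1 in sham livers (2.98, SE 0.27). Cxcl16 (1.49), Ccl24 (1.43), Ccl3 (1.37) and Ccl4 (1.2) rose too, and the Ccl24 arrays overlapped. With a pseudocount of 90, which presses dim genes toward 0, Ccl24 (0.68) and Ccl4 (0.8) were no longer called. The call of Ccl24 ended without any of 4 single arrays (0.7 at the lowest) and that of Ccl4 without sham replicate 1 (0.96). Cxcl1, at 20621, 20418 and 20538 in PH livers, against 13129, 13101 and 12767 in sham livers, differed by only 0.66, with 1594, 1566 and 1601 in normal liver. Cxcl9 (0.87), Cxcl10 (0.84) and Ccl7 (0.29) were not called.

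Of 25 genes of the NF-kB pathway and its targets, 4 rose: the nuclear regulator Nfkbiz (6702, 6377 and 6765 in PH livers, against 1879, 1681 and 1725 in sham livers; 1.9), the adhesion molecule Vcam1 (1.88), the precursor subunit Nfkb1 (1.13) and the survival gene Bcl2a1 (1.09, or 0.97 without sham replicate 3). The inhibitor Nfkbia, at 0.97, was just under 2-fold, and the cytokine Tnf, with 116.1, 105.5 and 20.7 in PH livers, against 75.4, 16.3 and 28 in sham livers, overlapped between groups (0.77, adjusted p = 0.318, limma). Il6 did not pass the filter on low signal. Among genes of interleukin-10 and of the control of interleukin-1, Il10 had 281.7, 252.4 and 232.6 in PH livers, against 8.3, 36.7 and 13 in sham livers (3.19). The decoy receptor Il1r2 had 252.8, 280.4 and 283.3 in PH livers, against 10.7, 41.8 and 13.8 in sham livers (3.17), and the receptor antagonist Il1rn had 1705, 1767 and 1734 in PH livers, against 268.2, 210 and 245 in sham livers (2.79). All 3 block or oppose interleukin-1 or macrophage activation. None overlapped between groups, but Il10 and Il1r2 are among the largest rises, which were picked for arrays that do not overlap. Il1b itself differed by 0.23 (adjusted p = 0.483). The scavenger of CXCL12, Ackr3, rose by 2.92.

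The acute phase genes split into a few large rises and a mass near 0: 5 of 27 rose, none fell, and the median was 0.13. A2m, the rat's main acute phase protease inhibitor, had 6154, 6593 and 6073 in PH livers, against 770.2, 992.4 and 920.3 in sham livers (2.8, SE 0.14, adjusted p = 1.04e-11, limma). Lcn2, a lipocalin that binds siderophores, had 1160, 925.1 and 1094 in PH livers, against 81.7, 70.6 and 92.7 in sham livers (3.52, SE 0.41). The metalloreductase Steap4 (2.45) and the protease inhibitor Timp1 (1.4) were the others beside Il1rn. The abundant proteins Fga (0.06), Fgg (0.05), Hp (0.01), Orm1 (0.03) and Hpx (0.05) differed by 0.06 or less at their brightest probe sets. A second Fga probe set was at 0.49 (adjusted p = 3.69e-07, limma), with mean signals of 28300 in PH livers, against 20100 in sham livers. Orm1, for instance, had 49930, 49825 and 49855 in PH livers, against 50265, 49607 and 46955 in sham livers, which may lie near the upper end of the array's range. In the IL6 and STAT3 list no member rose. Stat3 (0.67), Il6st (0.54) and Socs3 (1008, 1044 and 1003 in PH livers, against 731.6, 594.3 and 828.9 in sham livers; 0.51) stayed under 2-fold, and the leukaemia inhibitory factor receptor Lifr fell (-1.27, or -0.94 without PH replicate 3).

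Neutrophil markers were higher in PH livers, with 5 of 8 called and a median of 1.35. The calprotectin subunits S100a9 (7527, 8355 and 7631 in PH livers, against 1068, 1228 and 1205 in sham livers; 2.74, adjusted p = 6.25e-11, limma) and S100a8 (3781, 3542 and 3678, against 549.6, 593.9 and 591; 2.64) led, followed by Lcn2, Csf3r (1.38) and Mmp9 (1.17). The summed signal of the 8 was 13098 to 13520 in PH livers, against 2050 to 2273 in sham livers and 2614 to 2753 in normal liver, and the dimmest, Cxcr2, had a mean of 48.9 in PH livers, against 12.6 in sham livers. The calls of Csf3r and Mmp9 ended when single arrays were left out. Lymphocyte and NK markers had 4 of 19 higher (Cd74 at 1.5, Gzmb at 1.23, Cd3e at 1.15 and Cd3g at 1.1) and a summed signal of 10875 to 11055 in PH livers, against 5072 to 5460 in sham livers, both below the 24938 to 25773 of normal liver. The largest part of each sum was Cd74, with means of 7696 in PH livers, 2718 in sham livers and 20358 in normal liver. The calls of Cd3e and Cd3g ended without PH replicate 1 or 3 or sham replicate 1 (0.58 and 0.39 at the lowest), that of Cd3g also without PH replicate 2, and that of Gzmb as a mean of its probe sets (0.57). Macrophage and Kupffer cell markers had 0 of 13 called by limma (9 at an unadjusted p under 0.05, or 69.2% against 38.2% of all genes). Their sums were 50706 to 51084 in PH livers, against 43713 to 45736 in sham livers, both below the 64401 to 67184 of normal liver. Endothelial sums were 7686 to 7842 in PH livers, against 5414 to 5689 in sham livers, with only Flt1 of 11 called. In normal liver they were 7539 to 7694, so the sham arrays were the ones that stood apart. The part of these cells in the chemokine, NF-kB and acute phase results was not tested.

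Single large rises stood among the prostanoid genes and the regulators of G protein signals. Ptgis, prostacyclin synthase, had 544.9, 423.6 and 546.2 in PH livers, against 21.8, 27.1 and 26 in sham livers (3.8, SE 0.54, adjusted p = 2.63e-05, limma), and the phospholipase Pla2g2a (2.39) and the prostaglandin E2 receptor Ptger4 (1.54) rose, making 3 of 17. Rgs1, which shortens G protein signals, had 856, 952.4 and 908.8 in PH livers, against 71.1, 85 and 21.9 in sham livers (3.82, SE 0.41). Rgs3 fell (-1.08, or -0.93 with centred arrays and -0.77 as a mean of its probe sets). Thbd, the thrombin receptor thrombomodulin, had 2106, 1913 and 2002 in PH livers, against 199.1, 255 and 265.5 in sham livers (3.01), and its other probe sets rose by 1.96 and 2.7.

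The stress responses were uneven. In the integrated stress response 3 of 23 rose: Ppp1r15a (GADD34), which restores translation (1759, 1538 and 1556 in PH livers, against 399.3, 468.1 and 484.6 in sham livers; 1.82, adjusted p = 3.2e-12, limma), Nupr1 (1.16) and Trib3 (1.01). Atf4 differed by 0.55 and Ddit3 by -0.51. None of 21 genes of the unfolded protein response was called by limma (median 0.13, 12 at an unadjusted p under 0.05), the chaperone Hspa5 being at 0.03, nor was any of 25 genes of the hypoxia response (median 0.18, 12 at an unadjusted p under 0.05). Those at an unadjusted p under 0.05 made up 57.1% and 48.0% of the lists, against 38.2% of all genes. Of all genes 2.19% rose and 1.91% fell, so few or no calls would be usual in lists of this size. Of 20 heat shock genes 1 rose, Hspb8 (1.12). Among 24 targets of NRF2, Srxn1, which repairs peroxiredoxins, rose with 862.1, 832.4 and 708 in PH livers, against 218.2, 142.2 and 169 in sham livers (2.12), and Abcc3 (1.01) and Trib3 were the other rises. The call of Abcc3 ended without any of 4 single arrays (0.72 at the lowest), and that of Trib3 without any of 3 (0.95). Hmox1, at 0.85, was under 2-fold. The glutathione transferases Gstm3 and Gstt3 ran in opposite directions: Gstm3 had 633.6, 574.2 and 697.2 in PH livers, against 149.6, 27.6 and 33.4 in sham livers (3.28), while Gstt3 had 3810, 4003 and 3181 in PH livers, against 9172, 8854 and 9256 in sham livers (-1.31). Both belong to families of similar genes, which the probe sets may not fully separate.

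No gene of the machinery of growth was called by limma at its brightest probe set. Another probe set of Nolc1, a gene of ribosome biogenesis, rose by 1.07 (adjusted p = 0.0265, limma), while others were at 0.55 and -0.55. None of 49 genes of ribosome biogenesis (median -0.03), 33 of translation initiation and tRNA charging (median 0.14), 70 cytosolic ribosomal proteins (median 0.24), 79 respiratory chain subunits (median 0.01) or 36 proteasome subunits was called in either direction. At an unadjusted p under 0.05 there were 9 of 49, 16 of 33, 61 of 70, 23 of 79 and 14 of 36, against 38.2% of all genes. The 61 ribosomal protein genes all lay above 0, by differences under 2-fold, and the list's median was 0.13 with quantile normalization. In the polyamine list, Sat1, which acetylates spermidine and spermine for breakdown, rose with 19328, 19955 and 19537 in PH livers, against 6890, 6790 and 6847 in sham livers (1.52), while Odc1, the first enzyme of polyamine synthesis, differed by 0.33.

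Metabolic genes changed at a few regulators. In the glycogen list of 18, the 2 that fell are the subunits that bring protein phosphatase 1 to glycogen and so favour its synthesis. Ppp1r3b, the liver form, had 931.6, 963.4 and 1064 in PH livers, against 4633, 4849 and 4666 in sham livers (-2.25, SE 0.13, adjusted p = 9.65e-11, limma). Ppp1r3c had 763.6, 925.7 and 742 in PH livers, against 3963, 3861 and 4236 in sham livers (-2.3, SE 0.16, adjusted p = 2.59e-09). Neither overlapped between groups, and other probe sets of the same genes fell by 1.25 and 1.67. The enzymes of synthesis and breakdown themselves, Gys2 (0.25) and Pygl (0.07), were not called.

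In lipid storage, G0s2, an inhibitor of adipose triglyceride lipase, had 1538, 1445 and 1479 in PH livers, against 8166, 8272 and 8101 in sham livers (-2.45, SE 0.09, adjusted p = 1.69e-13, limma). Pnpla3, a relative of that lipase, had 2551, 2711 and 2675 in PH livers, against 426.4, 402.4 and 440.3 in sham livers (2.61, SE 0.15). Both were separated by several fold, and the lipase itself, Pnpla2, had 1187, 1192 and 1068 in PH livers, against 1109, 1227 and 1129 in sham livers (-0.01). The other 33 of 35 genes of lipid synthesis and storage were not called. Of the cholesterol genes, Sqle, an enzyme of squalene oxidation, differed by 0.93, Insig1, which holds back SREBP activation, by 0.79 and Hmgcs1, an early enzyme of the pathway, by -0.2, all under 2-fold.

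Among 32 genes of glucose and insulin handling, the insulin receptor substrate Irs2 (1381, 1438 and 1450 in PH livers, against 694.1, 565.9 and 581.1 in sham livers; 1.2), the PI3 kinase subunit Pik3r1 (1.48) and Trib1 rose, and Pck2 fell (-1.42). The call of Pck2 ended with centred arrays and in several other settings. The gluconeogenic Pck1 had 41146, 39890 and 40106 in PH livers, against 42455, 40964 and 41263 in sham livers (-0.04, or 0.11 with centred arrays), and G6pc1 differed by -0.65, neither of them called. Ppara, a nuclear receptor of fatty acid oxidation, rose at a low signal (230.8, 159.3 and 120.5 in PH livers, against 17.8, 77.9 and 30.1 in sham livers; 1.87), the 1 call of 26 in its list, and its call ended with a pseudocount of 90. Of 20 bile acid genes Nr0b2, the repressor SHP, rose with 4756, 3842 and 4189 in PH livers, against 1974, 2052 and 1925 in sham livers (1.09), as did Abcc3, with the same loss of its call. Cyp7a1, which SHP represses, had 5332, 5719 and 5354 in PH livers, against 10221, 9986 and 9944 in sham livers (-0.88, adjusted p = 5.63e-11), under 2-fold. None of 31 genes of the urea cycle and amino acid breakdown was called by limma, and 16 had an unadjusted p under 0.05 (51.6%, against 38.2% of all genes).

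Liver transcription factors had a median of -0.39 (-0.24 with centred arrays) over 30 members, of which 2 fell and 1, Nr0b2, rose. The pioneer factor Foxa2 had 650.7, 598.8 and 542 in PH livers, against 1596, 1654 and 1562 in sham livers (-1.41, SE 0.11, adjusted p = 4.77e-09, limma). Nr1i3, the xenobiotic receptor CAR, had 240.5, 149.4 and 160.5 in PH livers, against 524.2, 604.6 and 532.9 in sham livers (-1.56). Neither overlapped, and Onecut1 (-0.99), Hnf4a (-0.56) and Cebpa (-0.44) were lower without reaching 2-fold. Of 46 cytochrome P450 genes 2 fell, Cyp3a9 (4858, 5376 and 5258 in PH livers, against 15377, 16585 and 14634 in sham livers; -1.59) and the dim Cyp2g1 (-1.68, a call that ended without PH replicate 3 or sham replicate 1), and none rose. The clock list had Rora higher (1.26) and Nr1d1 (-1.34) and Tef (-1.08) lower, and the calls of the last 2 ended with centred arrays. Zinc finger genes named Zfp had a median of -0.41 (-0.26 with centred arrays) over 122 members, with 9 lower and 3 higher. Zfp37 led the falls (5.2, 29.1 and 40.2 in PH livers, against 154.8, 156.3 and 182.2 in sham livers; -2.4) and 3 of the 9 were lower with centred arrays.

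Several of the largest falls lay outside the lists. Serpinb9b, a serine protease inhibitor of the clade that blocks granzymes, had 62.3, 22.4 and 20.4 in PH livers, against 878.6, 963.4 and 929.7 in sham livers (-4.42, SE 0.32, adjusted p = 2.49e-09, limma). Rtp3, a transmembrane protein of liver, had 328.3, 327.1 and 338.7 in PH livers, against 1786, 1824 and 1547 in sham livers (-2.33, SE 0.12). The groups were far apart in both. Coa4, an assembly factor of cytochrome oxidase (-2.33), the scaffold Anks4b (-2.04), the kinase Prkcz (-1.94), Pbsn (-2.55), the channel Kcnh1 (-2.29), the kinase Ttk (-2.21), the receptor Calcr (-2.13), Tgm3 (-2.1), RGD1308116 (-2.7, no longer called without sham replicate 2) and Lipt2 (-1.91) fell to signals under 250 in PH livers. Other Lipt2 probe sets differed by -0.27 and 0.18, and its call ended as a mean of its probe sets (-0.66). Outside the lists on the side of the rises, the hyaluronidase Cemip2 had 965.5, 886.6 and 964.7 in PH livers, against 32.3, 39.6 and 52.1 in sham livers (4.17, SE 0.21). The bile acid transporter Slc10a2, of the solute carrier family, had 634.2, 536.8 and 656.1 in PH livers, against 87, 87.7 and 143.2 in sham livers (2.42). In that family 4 of 236 rose (1.69%) and 3 fell (1.27%), shares below the 2.19% and 1.91% of all genes.

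Beside normal liver at 0 h, the genes that differed between PH and sham showed several patterns. Of the 22125 probe sets, 555 (2.51%) were called higher and 1062 (4.8%) lower after PH against normal liver, and 228 (1.03%) and 441 (1.99%) after sham against normal liver. These comparisons share arrays with the one above, so the values are given side by side and are no independent support. For Nr4a1, Btg2, Rhob and G0s2 the sham arrays lay nearer to normal liver: PH minus normal was 3.85, 3.11, 2.84 and -2.43, and sham minus normal was -0.75, 0.19, -0.27 and 0.02. Another group was higher after either operation, more so after PH. Gadd45b averaged 5076 ± 50.5 in PH livers and 1291 ± 261 in sham livers, against 444 ± 45 in normal liver (SD, n = 3 each). Nfkbiz averaged 6614 ± 208 and 1761 ± 104, against 791.7 ± 40.3, and Irs2 1423 ± 36.7 and 613.7 ± 70.1, against 331.9 ± 40.4, in the same order. Junb, Cdkn1a and Cxcl1, whose brightest probe sets missed the 2-fold threshold between PH and sham, were 2.18, 2.12 and 3.68 above normal liver after PH, against 1.28, 1.42 and 3.02 after sham.

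For a further group the difference lay in the sham arrays. Vim averaged 2816 ± 26.1 in PH livers and 909.7 ± 59.8 in sham livers, against 2389 ± 75.7 in normal liver, and Vcam1 432.1 ± 31.3 and 109.9 ± 19.8, against 538.6 ± 45.5. PH minus normal was 0.24 for Vim and -0.31 for Vcam1, while sham minus normal was -1.38 and -2.18. Cxcl16 (0.09 and -1.4), Pik3r1 (-0.27 and -1.75) and Dusp2 (-0.43 and -2.57) had the same form. Ccn1 was above normal liver after PH (0.8) and below it after sham (-2.07). Cd74, which chaperones MHC class II molecules, rose in PH livers relative to sham livers and was below normal liver in both: it averaged 7696 ± 221 in PH livers and 2718 ± 135 in sham livers, against 20358 ± 502 in normal liver. Gbp2, an interferon-induced GTPase (1.29 between PH and sham), and Gdf15 did likewise, with PH minus normal at -1.54 and -1.17 and sham minus normal at -2.83 and -2.35. The fall of Serpinb9b had the mirrored form, since it was at -1.08 relative to normal liver after PH and at 3.34 after sham, and RGD1308116 was at -0.31 after PH and 2.39 after sham. Retreg1, an ER-phagy receptor chosen for its values after they were seen, averaged 18437 ± 572 in PH livers and 6925 ± 122 in sham livers, against 1886 ± 17.2 in normal liver.

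**Figure D5:**
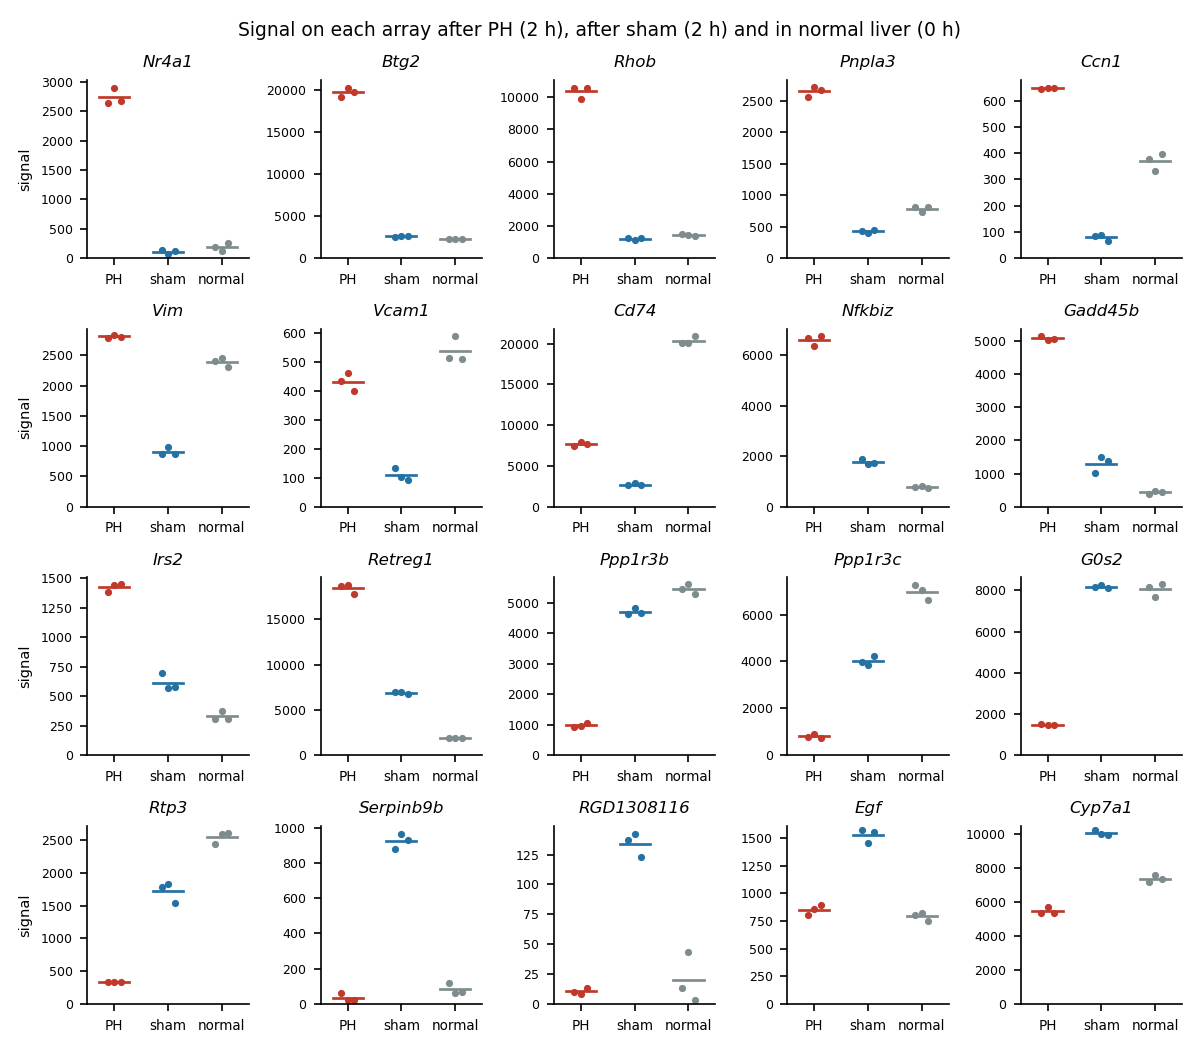
Signal on each array (vertical axes from 0, deposited intensity) after PH at 2 h, after sham operation at 2 h and in normal liver at 0 h for 20 genes, with bars at the group means of 3 arrays. Sham arrays lie near normal liver for Btg2, Rhob and G0s2, between PH and normal liver for Gadd45b, Nfkbiz and Irs2, and apart from both for Vim, Serpinb9b and Egf.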

How the data were processed

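Liver RNA was hybridised to single-colour Affymetrix Rat Genome 230 2.0 arrays, and the deposited values are signal intensities per probe set on a linear scale, made with GCOS 2.0, per the submitters' processing notes. Each array's mean signal, after the lowest and highest 2% were trimmed, lay at the same target, and no further scaling was applied here. Neither detection calls nor background values were used here, so the precision of an intensity rests on the number of arrays. A second table deposited by the authors holds log2 ratios of each group to normal liver. Its ratio columns name a group but no array, so these log2 values served as an alternative as group means, and 90 of its other columns were not used.

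After removal of 57 control probe sets, a probe set was tested where its signal lay above the 40th percentile of its array on at least 3 of 18 arrays. This kept 22125 of 31042 probe sets. The pseudocount of 12 is close to the 10th percentile of all signals. log2(signal + 12) was fitted with limma 3.58.1 in R 4.3.3 (lmFit, eBayes with its trend option), with 6 group means over 18 arrays, 12 residual degrees of freedom and a median of 7.14 prior degrees of freedom. Tests were two-sided, p-values were adjusted by Benjamini-Hochberg over all probe sets tested, and a call needed an adjusted p under 0.05 and a change of at least 2-fold. The steps were tested on simulated data.

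Gene symbols came from the second deposited table and were updated through RefSeq's gene table (assembly GRCr8). Of 31099 probe sets, 19914 had 1 symbol, 343 had several and 10842 had none, and those with several or none were left unnamed. A gene was represented by the tested probe set that was brightest on average over the 18 arrays. The genes named are the 20 largest rises and the 20 largest falls whose arrays did not overlap between the groups, the called members of the gene lists, and a fixed set of 28 genes. Some of these are not reported here. The comparison, the gene lists and the fixed genes were chosen with earlier results of these data known. Promoters are RefSeq's (GRCr8). The alternatives changed the pseudocount, the filter, the scaling, the arrays in the model, the variance trend, the replicate number as a block, each array left out, the rule for a gene's probe set and the promoter window.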

Additional observations from a re-analysis of the deposited data

How the results depend on the processing

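The 438 probe sets called higher and 528 called lower after PH against sham became 251 and 134 with a pseudocount of 90, which shrinks differences at low signal by construction. The genes called became 160 higher and 63 lower in place of 252 and 220. With that pseudocount 354 probe sets were called lower after PH against normal liver in place of 1062, and sham against normal liver gave 124 higher and 201 lower in place of 228 and 441. The list counts fell to 3 Egr and Klf factors, 3 MAP kinase feedback genes and 3 neutrophil markers called higher, and to 3 S phase genes and 2 Zfp genes called lower. A filter at the 60th percentile, which tests fewer probe sets, left 290 probe sets called lower, 660 lower against normal liver and 4 S phase genes lower. Quantile normalization left 333 probe sets, 136 genes and 3 Zfp genes called lower, and 570 probe sets lower against normal liver. Centring each array on its median gave 312 probe sets, 124 genes and 3 Zfp genes called lower, and 944 higher and 470 lower against normal liver. It called 353 genes higher, all 252 among them, and kept 124 of the 220 called lower, so the share of falls among the calls rests on the authors' scaling.

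Without 1 array of either group, 410 to 450 probe sets were called higher and 432 to 589 lower, and 231 to 258 genes higher and 183 to 249 lower. Of the 252 rises 212 to 227 were kept, and of the 220 falls 165 to 178. MAP kinase feedback genes called higher numbered 3 to 5, with 3 without PH replicate 3 or sham replicate 1, and neutrophil markers 3 to 5, with 3 without PH replicate 1 or sham replicate 3. Arrays with the same replicate number deviated together only weakly, with correlations of 0.0349, 0.0479 and 0.0301, so the numbers were not taken as pairs. With the replicate number as a block, 433 probe sets were called higher and 531 lower, and 250 and 222 genes, of which 244 and 214 are shared with the calls above. The block gave 549 higher and 1070 lower for PH against normal liver, and 222 and 433 for sham against normal liver.

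Signs turned for 7 genes, and the cause was not tested. Hgf (log2 difference 0.32) was at -0.29 without PH replicate 2 and ranged up to 0.78 over the arrays left out. Met (0.04) was at -0.01, -0.03 and -0.06 without PH replicate 2, PH replicate 3 and sham replicate 2, and ranged up to 0.17. Egfr (0.34) was at -0.09 and Fzd7 (-1.09) at 0.01 as means of their probe sets. Alb (-0.02) was at 0.13 with centred arrays, 0.05 without PH replicate 3, 0.03 without sham replicate 1, 0.02 as a mean of probe sets and 0.07 in the authors' deposited table, an alternative added after the data were seen. With centred arrays Pck1 (-0.04) was at 0.11 and Per1 (-0.13) at 0.02. Of 191 named genes, calls ended for 54 with a pseudocount of 90, 18 with quantile normalization, 15 with centred arrays, 12 with the 2 groups fitted alone and 12 to 20 without a single array (20 without sham replicate 1 or sham replicate 3). Of the 173 named genes that were called, 37 lost the call without at least 1 array. Among the named genes and list members, 28 that were not called had another probe set that was. Counts per array from the deposited log2 ratios were not run, because the columns name no array. As group means, and without a test, those ratios put 15 of the 191 named genes on the other side of the 2-fold line and 175 on the same side. Among the 15 were Id1 (0.93), Acta2 (0.81), Col1a2 (0.6), Smad7 (-0.69) and Rgs3 (-0.59).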
